A study of Mus musculus with 6 samples.

Results

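Expression of the Wnt pathway was followed in cells of the Gli1 lineage taken from ovaries of adult mice. Membership was set by gene symbol and covers the Wnt ligands, their Fzd and Lrp5 or Lrp6 receptors, the secreted antagonists Sfrp, Dkk and Wif1, the R-spondins with Lgr4 to Lgr6 and the ligases Znrf3 and Rnf43, and the intracellular effectors Ctnnb1, Axin1, Axin2, Lef1, Tcf7, Tcf7l1 and Tcf7l2. It came to 55 genes on 107 probe sets, out of 18193 genes and 45037 probe sets in all. Tcf7 was not analysed here.

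All cells came from 2-month-old females labelled as strain 129S6/SvEvTac that carried Gli1-CreERT2 and Rosa-LSL-tdTomato, so that a cell expressing Gli1 when tamoxifen was given, and its descendants, keep a red label. Mesonephros-derived cells (3 arrays) had been labelled in the fetus with tamoxifen at E12.5, at E14.5 and at E16.5. For ovary-derived cells (3 arrays), tamoxifen reached the pups from P1 to P3 by way of the lactating mother. Dissociated ovarian cells were sorted by tdTomato, and a fixed volume of RNA, of varying concentration, was amplified for each array. The groups differ in labelling age as well as in the origin their names give, and the 2 cannot be told apart. The label marks every Gli1-expressing cell of its time, not theca cells alone, and whether ovaries were pooled for a sample is not given in the sources used here. Because sorted populations were measured in bulk, fewer cells of a type and less RNA per cell cannot be told apart.

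Wnt proteins are secreted lipid-modified signals. In the canonical branch a Wnt binds a Frizzled receptor with Lrp5 or Lrp6, which stops the Axin complex from destroying beta-catenin (Ctnnb1), and beta-catenin then works with Tcf and Lef factors in the nucleus. In other branches, of which Wnt5a is the best known ligand, Frizzled, Ror2 or Ryk signal without beta-catenin and act on cell shape and movement. In the mouse ovary, Wnt4 and Rspo1 are needed for female development of the gonad, Fzd4 for the corpus luteum, and Wnt5a for normal follicle growth.

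At an unadjusted p of 0.05 in limma, 4 of the 33 Wnt genes tested were higher and 4 lower (12.1% each). Over all genes tested the shares were 6.46% and 7.22%. Of these 8 Wnt genes, 5 had no probe set past the floor that went the opposite way. For Wnt9a, Fzd8 and Sfrp4 among these, no other probe set passed the floor, so none could go the opposite way. The other probe set of Wnt9a, below the floor, stood at 0.11. The ligands Wnt9a and Wnt5a and the receptors Fzd8 and Fzd7 had lower signals in every mesonephros-derived array than in any ovary-derived array. The secreted antagonist Sfrp4 had a higher signal. Over all genes tested, 12.6% were lower and 9.56% higher without overlap. Wnt9a passed the floor only through the ovary-derived group, where it is high. No Wnt gene passed an adjusted p of 0.05, so these are differences in measured level that the whole-array test did not call. For Wnt5a, Wnt9a, Fzd7 and Sfrp4 the difference was smaller when the poly-A spike signal of the arrays entered the fit, and for Fzd8 it was not. The spike signal was higher on every mesonephros-derived array than on any ovary-derived array, so this fit cannot fully separate it from the groups. Its part in these differences was not tested.

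The promoters of Wnt9a and Fzd7, 2 of the 4 genes that were lower at an unadjusted p of 0.05 in limma, are printed as a ligand and a receptor that both stood lower. They are RefSeq sequences on GRCm38.p6, read 5′ to 3′ on the plus strand, from 250 bases before to 50 after the annotated start. Capitals mark the core letters that Tcf and Lef factors are known to bind, CTTTGA or CTTTGT, searched on both strands (TCAAAG and ACAAAG).
Wnt9a, chr11:59306680-59306979: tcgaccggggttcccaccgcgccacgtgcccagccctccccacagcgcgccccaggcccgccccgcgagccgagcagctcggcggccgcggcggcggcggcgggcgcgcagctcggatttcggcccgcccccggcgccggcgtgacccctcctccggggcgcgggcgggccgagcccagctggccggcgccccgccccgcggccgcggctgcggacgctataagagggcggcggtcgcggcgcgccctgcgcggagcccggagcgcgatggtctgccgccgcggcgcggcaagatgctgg
Fzd7, chr1:59481897-59482196: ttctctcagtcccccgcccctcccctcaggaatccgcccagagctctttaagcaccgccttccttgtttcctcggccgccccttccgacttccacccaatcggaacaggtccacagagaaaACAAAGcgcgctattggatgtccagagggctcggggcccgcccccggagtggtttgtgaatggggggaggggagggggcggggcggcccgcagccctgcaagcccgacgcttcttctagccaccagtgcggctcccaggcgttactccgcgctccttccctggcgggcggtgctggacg
The Fzd7 window holds 1 such match, which begins 129 bases before the start, and the Wnt9a window holds 0. At least 1 of the letter groups is held by 31.2% of all 32851 promoters. The 36 Wnt genes with an entry have 45 promoters, and 11 of these hold at least 1, in 11 genes that include Lef1, Fzd1 and Dkk1. G and C make up 83.3% of the Wnt9a window and 66.7% of the Fzd7 window, against a median of 52.7% over all promoters.

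Signals are deposited probe set intensities. Each gene was represented by its brightest probe set, differences are on the scale log2(signal + 16), mesonephros-derived minus ovary-derived, and genes whose mean lay below a floor of 99.4 (the 40th percentile of all probe sets) were not tested. Folds are on this same scale, which understates differences of dim genes. Of the 55 Wnt genes, 33 were tested and 22 lay below the floor. The 22 are the ligands Wnt1, Wnt2, Wnt3, Wnt3a, Wnt7a, Wnt7b, Wnt8a, Wnt9b, Wnt10a, Wnt10b and Wnt16, the receptors Fzd9 and Fzd10, the antagonists Dkk1, Dkk4, Sfrp5 and Wif1, and Rspo1, Rspo3, Rspo4, Lgr5 and Rnf43. On their brightest probe set 13 of them stayed below the floor on every array, and the highest signal of any was 175, for Wnt3a. Rspo1, which with Wnt4 drives ovarian fate in the fetus, read at most 75.1, and Lgr5, an R-spondin receptor of ovarian surface and other stem cells, exceeded the floor on 1 array. Of the 33 tested genes, 6 had a group mean below the floor and passed through the other group: Wnt9a, Wnt8b, Fzd6, Dkk2 and Sfrp2, all lower in mesonephros-derived cells, and Rspo2, which was higher.

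The arrays of the groups stood apart in control signals and in spread. Relative to the mean of the ovary-derived arrays, the poly-A spikes (control transcripts designed to be added to RNA before it is amplified) read 13.9, 13.2 and 2.25 on mesonephros-derived arrays 1, 2 and 3, against 0.618, 0.757 and 1.62 on ovary-derived arrays. Correlations over all probe sets were 0.844 to 0.896 within the mesonephros-derived arrays, 0.963 to 0.973 within the ovary-derived arrays, and 0.871 to 0.950 across the groups. The ratio of 3′ to 5′ Gapdh signal, which goes up as RNA is degraded, was 5.29, 3.48 and 2.63 on mesonephros-derived arrays 1, 2 and 3, against 1.94, 2.39 and 2.86 on ovary-derived arrays. Hybridization spikes read 3.38, 2.73 and 1.38 relative to the ovary-derived mean, against 0.827, 0.950 and 1.22. Mesonephros-derived array 1, with the highest ratio, was the lowest of the 6 arrays for Wnt5a, Axin2, Dkk2 and Fzd6, among others. The same array was the highest of the 6 for Ctnnb1, Sfrp4, Znrf3 and Wnt4, among others. The part of these differences in the Wnt values was not tested beyond the fits given with each gene. The median SD of the 33 Wnt genes was 0.56 log2 units among mesonephros-derived arrays and 0.24 among ovary-derived arrays, and over all 11703 genes tested it was 0.48 and 0.21. Of the 33 Wnt genes, mesonephros-derived array 1 lay below the ovary-derived range for 16 and above it for 12, array 2 below for 11 and above for 16, and array 3 below for 11 and above for 9.

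None of the 33 Wnt genes passed an adjusted p of 0.05 in limma, where 5 of all 11703 genes (0.0427%) did. At an unadjusted p of 0.05 in limma, 4 Wnt genes were higher (12.1%) and 4 lower (12.1%), against 6.46% higher and 7.22% lower (13.7% in all) over all genes tested. The 4 higher were Sfrp4, Znrf3, Lrp6 and Ctnnb1 and the 4 lower Wnt9a, Wnt5a, Fzd8 and Fzd7. The groups did not overlap for 5 Wnt genes on the higher and 5 on the lower side, against 9.56% and 12.6% of all genes, so the counts without overlap lay near those of the array as a whole. Wnt9a, in both lower counts, and Dkk2, lower without overlap, passed the floor only through the ovary-derived group. The median log2 difference was 0.03 over the 33 Wnt genes and −0.08 over all genes tested. These counts rested on few arrays. Without 1 array the higher count ran from 1 (without ovary-derived replicate 3) and 2 (without ovary-derived replicate 1) to 5, and the lower count from 3 to 7 (without mesonephros-derived replicate 2), and the counts were 0 and 1 once the poly-A spikes entered as a covariate. With arrays weighted by their noise, 129 of all genes passed, Wnt9a and Wnt5a among them (limma adjusted p = 0.0268 and 0.0445), while adjusted p-values under the other alternatives did not go below 0.05 for any Wnt gene.

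**Figure D1:**
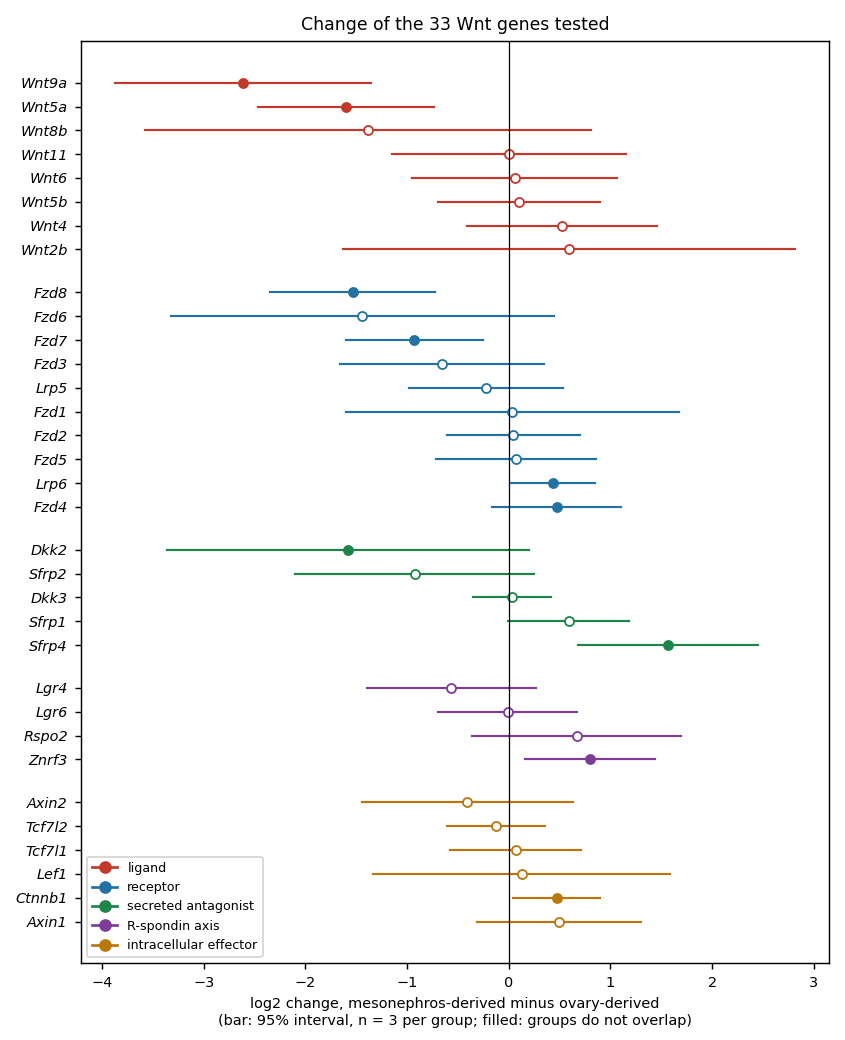
Log2 difference of the 33 tested Wnt genes (mesonephros-derived minus ovary-derived, n = 3 arrays each, bars 95% intervals from limma), by role, with filled points where the groups do not overlap. Wnt9a, at −2.61, lies farthest below 0 and Sfrp4, at 1.56, farthest above it, and most intervals include 0.

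Among the ligands, 8 of 19 were tested, 5 with a positive and 3 with a negative difference. Wnt9a, a ligand known for its part in joint formation, had signals of 85.8, 21.6 and 161 on the mesonephros-derived arrays, against 528, 591 and 455 on the ovary-derived arrays. A single mesonephros-derived array exceeded the floor, and all 3 lay far below the ovary-derived range. The difference was −2.61 ± 0.56 log2 units (SE, n = 3 each; limma adjusted p = 0.185). Its 95% interval ran from −3.88 to −1.35. Because the mesonephros-derived mean lay below the floor, this value moves with the pseudocount (−2.94 with 1 and −2.04 with 64). With each mesonephros-derived array set no lower than the floor, the estimate for Wnt9a was 4.04-fold lower. The difference was −1.10 with the spike covariate, −2.001 without mesonephros-derived replicate 2 and −1.25 as the mean of its probe sets, the other of which lay below the floor at 24.4 to 118 in mesonephros-derived and 45.3 to 61.6 in ovary-derived cells. Wnt9a lies beside Wnt3a, and of the 4 pairs of neighbouring Wnt genes (Wnt6 with Wnt10a, Wnt3a with Wnt9a, Wnt9b with Wnt3 and Wnt10b with Wnt1) no pair had both genes tested.

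Wnt5a, the main ligand of the branches without beta-catenin, had signals of 462, 886 and 1514 in mesonephros-derived cells, against 2308, 3029 and 2595 in ovary-derived cells. Array 1 was lowest and array 3 closest to the ovary-derived range, which none reached. Its difference was −1.60 ± 0.38 (SE, n = 3 each; limma adjusted p = 0.214), or 3.04-fold lower. Wnt5a was measured by 4 probe sets past the floor, and their differences ran from −1.63 to −0.75. A second probe set read 419, 973 and 1103 against 2303, 2854 and 2147, and the third 269, 344 and 461 against 1012, 1232 and 735, again without overlap between the groups. The fourth and dimmest, at −0.75, overlapped. Mesonephros-derived array 1 had the lowest Wnt5a signal on each of the 4 probe sets. The difference was −0.45 with the spike covariate and −1.17 without mesonephros-derived replicate 1.

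The remaining ligands overlapped between the groups. Wnt4, the ligand needed for ovary formation, read 1517, 1382 and 522 in mesonephros-derived cells, against 582, 947 and 658 in ovary-derived cells. Its difference of 0.52 ± 0.41 (SE; limma adjusted p = 0.589) had a 95% interval from −0.41 to 1.46, and a second probe set gave −0.17. It came to −0.09 with array weights and to −0.82 with the spike covariate. Wnt6 stood at 0.06 ± 0.44, with a second probe set at −0.58, and Wnt11 at 0.00 ± 0.51, with both on either side of 0 under the alternatives. Wnt8b stood at −1.39 ± 0.97 log2 units, with 3.61, 304 and 99.4 in mesonephros-derived cells against 93.3, 219 and 485 in ovary-derived cells, and the groups overlapped. It came to −0.29 without mesonephros-derived replicate 1 and −2.30 without replicate 2. Wnt2b and Wnt5b were at 0.60 and 0.10, but a second probe set of Wnt5b, below the floor on average, stood at −1.45 without overlap, with 6.34, 126 and 60.7 against 163, 177 and 128.

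**Figure D2:**
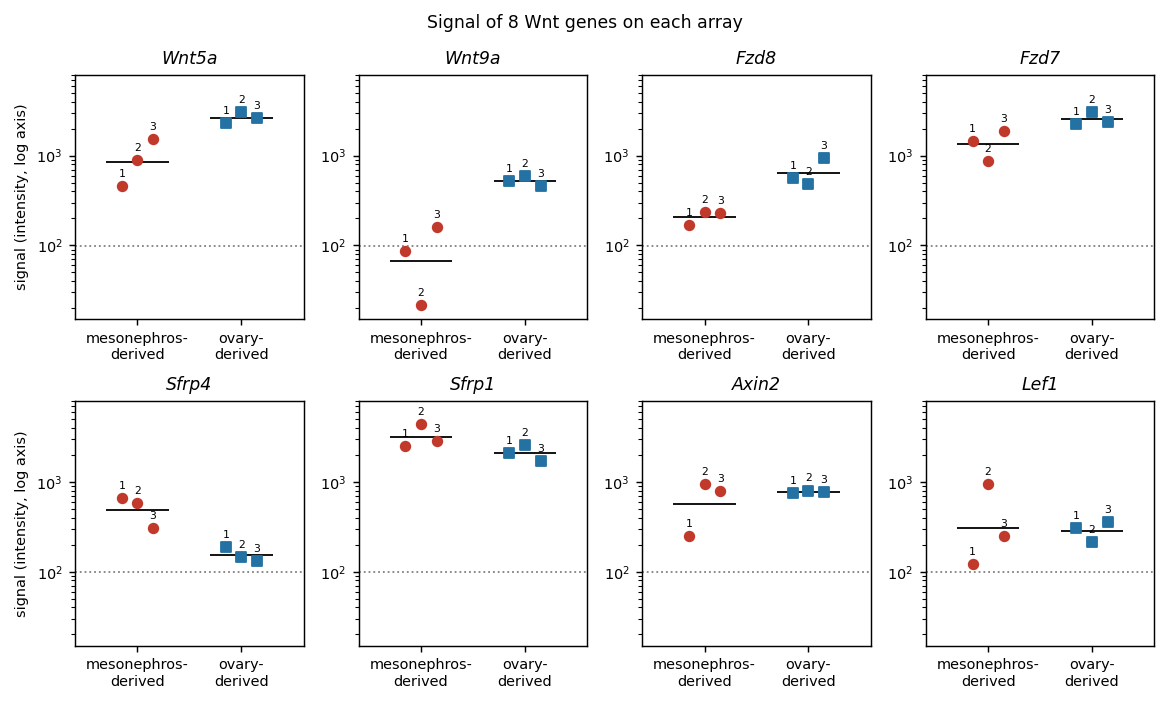
Signal on each array (log axis, dotted line at the floor of 99.4, horizontal bars geometric means, digits replicate numbers) for 8 Wnt genes in mesonephros-derived (red circles, left) and ovary-derived cells (blue squares, right). Wnt5a, Wnt9a, Fzd8, Fzd7 and Sfrp4 do not overlap between the groups, while Sfrp1, Axin2 and Lef1 do.

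Of the 12 receptors, 10 were tested, 5 in each direction. Fzd8, a Frizzled receptor, had signals of 168, 234 and 231 in mesonephros-derived cells, against 556, 484 and 952 in ovary-derived cells. The mesonephros-derived arrays were close together and all below the lowest ovary-derived array. The difference was −1.54 ± 0.36 log2 units (SE, n = 3 each; limma adjusted p = 0.214), or 2.90-fold lower, and lay between −1.73 and −1.25 under all alternatives run, −1.71 with the spike covariate among them. A second probe set of Fzd8, below the floor, also stood at −1.54. Fzd7, which in other tissues carries both canonical and other Wnt signals, read 1453, 865 and 1883 against 2254, 3086 and 2392. The groups did not overlap, and the difference was −0.93 ± 0.30 (SE; limma adjusted p = 0.279). It was −0.62 without mesonephros-derived replicate 2 and −0.22 with the spike covariate, and a dim second probe set gave −0.22.

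For 7 of the 10 tested receptors the SD was larger among mesonephros-derived arrays, as it was for 83.1% of all genes tested. Fzd1 had signals of 473, 5744 and 2539 in mesonephros-derived cells, against 1994, 1760 and 1857 in ovary-derived cells. Array 1 lay well below and arrays 2 and 3 above the narrow ovary-derived range, so that the difference of 0.03 ± 0.72 (SE) had an interval from −1.60 to 1.67 and came to 1.03 without mesonephros-derived replicate 1 and −0.75 without replicate 2. A second probe set of Fzd1 gave 0.72. Fzd4, the receptor needed for luteal function, read 1024, 670 and 634 against 513, 572 and 544, without overlap. Its difference was 0.47 ± 0.28 (SE; limma adjusted p = 0.475), with its other probe sets at 0.15 and −0.10. Fzd6 stood at −1.44 ± 0.83 with 9.85, 355 and 76.4 in mesonephros-derived cells, against 280, 255 and 205 in ovary-derived cells. It came to −0.49 without mesonephros-derived replicate 1 and −2.42 without replicate 2, and its other probe sets, below the floor, gave −1.05 and 0.83. Fzd3, chosen for description after its values were seen, stood at −0.66 ± 0.44, and all 6 of its probe sets lay below 0, from −1.34 to −0.01. Lrp6, the co-receptor of the canonical branch, read 5381, 5439 and 5258 against 3769, 4877 and 3413. It was 1.35-fold higher on this probe set (0.43 ± 0.19 SE; limma adjusted p = 0.361), while its other probe set stood at −0.36 and the mean of the pair at 0.03. Lrp5 stood at −0.23, Fzd2 at 0.04 and Fzd5 at 0.07.

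Secreted antagonists bind Wnt proteins or block their co-receptors outside the cell. Of 9 members 5 were tested, and Sfrp4, a Frizzled-related decoy known from ovarian follicles and corpora lutea, had the largest positive difference of any Wnt gene. It read 655, 577 and 305 in mesonephros-derived cells, against 190, 145 and 133 in ovary-derived cells, so that each mesonephros-derived array exceeded the highest ovary-derived array. The difference was 1.56 ± 0.39 log2 units (SE, n = 3 each; limma adjusted p = 0.229), or 2.96-fold higher. Of the mesonephros-derived arrays, array 3 was lowest for Sfrp4, and the difference was 0.80 with the spike covariate.

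Sfrp1, a related decoy, was measured by 5 probe sets, all with positive differences from 0.03 to 0.73. The brightest read 2527, 4427 and 2887 in mesonephros-derived cells, against 2124, 2605 and 1702 in ovary-derived cells, with 1 mesonephros-derived array inside the ovary-derived range. Its difference was 0.59 ± 0.26 (SE; limma adjusted p = 0.365) and also 0.59 with the spike covariate. A second probe set read 2628, 2486 and 2684 against 1424, 1991 and 1517, and the third 2253, 3173 and 2528 against 1454, 1833 and 1465. On these 2 probe sets the groups did not overlap (differences 0.67 ± 0.20 and 0.73 ± 0.21 SE, limma adjusted p = 0.290 and 0.289 over 22475 probe sets). Dkk2, a blocker of Lrp6, stood at −1.58 ± 0.79, with 2.51, 127 and 117 against 173, 307 and 138. The groups did not overlap, but the mesonephros-derived arrays lay below the floor or just above it, and the difference was 0.02 with the spike covariate and −0.61 without mesonephros-derived replicate 1. Sfrp2 stood at −0.93 ± 0.52. Dkk3, a divergent member of its family, stood at 0.03 ± 0.17 with a 95% interval from −0.35 to 0.42.

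R-spondins strengthen Wnt signalling by binding Lgr receptors and drawing away the ligases Znrf3 and Rnf43, which otherwise remove Frizzled receptors from the surface. Of these 9 genes 4 were tested. Znrf3 read 686, 612 and 510 in mesonephros-derived cells, against 368, 318 and 329 in ovary-derived cells. The difference on this probe set was 0.80 ± 0.28 log2 units (SE; limma adjusted p = 0.305), with no overlap. The other probe set of Znrf3 read 140, 294 and 195 against 433, 431 and 423, also with no overlap but on the opposite side, at −1.04 ± 0.37 (SE; limma adjusted p = 0.327 over all probe sets), and the mean of the pair was −0.12. Lgr4, an R-spondin receptor, stood at −0.57 ± 0.37, with 1026, 370 and 832 against 1082, 1021 and 958. Rspo2 stood at 0.67 ± 0.45 and Lgr6 at −0.01 ± 0.30.

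Among the 6 intracellular effectors, all tested, Ctnnb1 (beta-catenin itself) also had probe sets on both sides. On its brightest probe set it read 18888, 17257 and 12368 in mesonephros-derived cells, against 10980, 11399 and 12057 in ovary-derived cells. This difference of 0.47 ± 0.19 log2 units (SE; limma adjusted p = 0.340) came to −0.07 after quantile normalization, to −0.10 with the spike covariate and to −0.10 as the mean of its probe sets. Its other probe sets stood at −0.53 and −0.25, the first without overlap, with 1609, 2259 and 2574 against 3028, 3226 and 2913. For Ctnnb1 and Znrf3 the direction thus differed with the probe set.

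Axin2 and Lef1 are direct targets of beta-catenin in many tissues. Axin2 read 248, 954 and 800 in mesonephros-derived cells, against 749, 802 and 764 in ovary-derived cells. Apart from array 1 the values lay close to the ovary-derived range, and the difference of −0.41 ± 0.46 (SE; limma adjusted p = 0.713) was 0.18 without mesonephros-derived replicate 1. A second probe set of Axin2 gave 0.29, and the mean of the pair was −0.06. Lef1 read 123, 952 and 247 against 306, 212 and 354, at 0.13 ± 0.64 log2 units (SE; limma adjusted p = 0.946). Array 2 alone stood above the ovary-derived range, and Lef1 was at −0.65 without it and at 0.75 without array 1. Axin1 stood at 0.49 ± 0.36 with its other probe set at −0.50, Tcf7l2 at −0.12 ± 0.21 with others from −1.09 to 0.62, and Tcf7l1 at 0.07 ± 0.28 with another at −0.48. The 95% intervals ran from −1.45 to 0.63 for Axin2 and from −1.33 to 1.59 for Lef1, and both include 0.

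**Figure D3:**
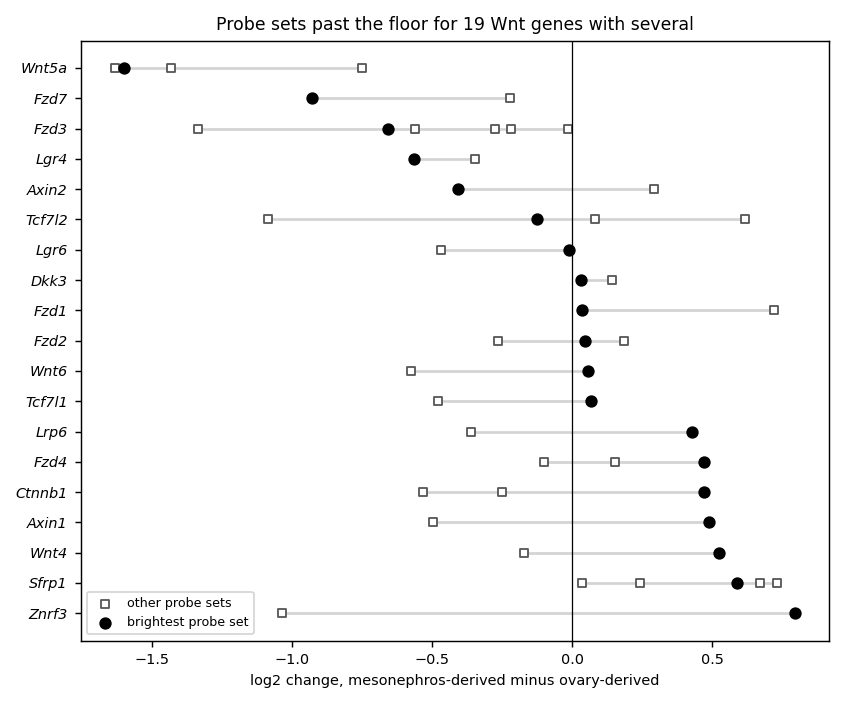
Log2 difference (mesonephros-derived minus ovary-derived) of each probe set past the floor for the 19 Wnt genes with several, the brightest as black circles and the others as open squares. The 4 probe sets of Wnt5a, the 6 of Fzd3 and the 5 of Sfrp1 each lie on 1 side of 0, while 11 of the 19 genes, Znrf3 and Ctnnb1 among them, have probe sets on both sides.

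Several probe sets passed the floor for 19 Wnt genes, and for 11 of these at least 1 went against the brightest. Over probe sets, 7 of 66 were higher and 8 lower at an unadjusted p of 0.05 in limma, against 5.29% and 7.82% of all 22475 probe sets, and 0 passed an adjusted p of 0.05 in limma (lowest adjusted p = 0.206), as 0.0178% of all probe sets did. Probe sets of 1 gene share its RNA. Those that were higher came from 5 genes and those that were lower from 6, with 3 each from Sfrp1 and Wnt5a.

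Other genes of the pathway were counted from lists chosen by function. Of 66 on the array 51 were tested and 0 passed an adjusted p of 0.05 in limma. At an unadjusted p of 0.05, 8 were higher (15.7%) and 2 lower (3.92%), against 6.46% and 7.22% of all genes tested. Positive differences numbered 26 and negative 25, with a median of 0.01. Frzb, a Wnt-binding decoy of the Sfrp family, read 350, 524 and 833 in mesonephros-derived cells, against 230, 265 and 120 in ovary-derived cells. The groups did not overlap, both of its probe sets were higher (1.39 and 1.13 log2 units), and the first had an SE of 0.44 and a limma adjusted p of 0.272. With the spike covariate it stood at 2.69. Igfbp4, which also binds Frizzled and Lrp6, stood at 0.67 ± 0.27, or 0.05 with the spike covariate. Other probe sets of Igfbp4 ran from 0.21 to 0.73.

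Wnt release and relay gave mixed values. Wls, which carries Wnt proteins to the cell surface, read 443, 818 and 1146 in mesonephros-derived cells, against 1285, 1376 and 1190 in ovary-derived cells. The groups came close without overlap, with a difference of −0.77 ± 0.34 (SE; limma adjusted p = 0.365) that was 0.17 with the spike covariate. Other probe sets of Wls stood at −0.94 and −0.18. Porcn, the enzyme that attaches the lipid to Wnt proteins, stood at 0.70 ± 0.31. Dvl1, which passes the signal from Frizzled to the Axin complex, read 5904, 8283 and 5478 against 3988, 3475 and 3295. Its difference was 0.85 ± 0.20 (SE; limma adjusted p = 0.215) and lay between 0.62 and 0.97 under all alternatives run. A second probe set of Dvl1 stood at 0.53. The ubiquitin ligase subunit Fbxw11 stood at 0.43 ± 0.15 on its brightest probe set and at −0.44, −0.04 and 0.07 on its others, with a mean of 0.03. The co-repressor Tle5 stood at 0.40 ± 0.17, and the co-activator Bcl9 at 0.48 ± 0.30 with another probe set at −0.24. In planar cell polarity, Daam1 stood at −0.95 ± 0.37, with its other probe sets at 0.21 and 0.73, and Scrib at 0.71 ± 0.31. Of 12 reported beta-catenin targets tested, 0 were called at an unadjusted p of 0.05 in limma in either direction, where 13.7% of all genes were, and 9 were negative, as were 6612 of all 11703 genes. Ccn4 stood at −0.84 ± 0.44 with another probe set at 0.22, and Cd44 at −0.68 ± 0.35 with others at 0.07 and −1.38. With the spike covariate Ccn4 was at 0.66 and Cd44 at 0.18.

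Markers of other ovarian cells were read beside these values. All 11 theca and stromal markers matched on the arrays were above the floor. Their summed signal was 93905 to 108268 in mesonephros-derived cells and 66473 to 74735 in ovary-derived cells. Differences were positive for 8 and negative for 3, Gli1 (−0.81), Ptch1 (−0.08) and Pdgfra (−0.02), each with overlap. The groups did not overlap for 3, all of them higher, against 9.56% of all genes tested. These were Cyp17a1 (2.67), Col1a1 (1.00) and Nr2f2 (0.33). All 11 smooth muscle and pericyte markers had positive differences, as had 5091 of all 11703 genes tested. Their summed signals were 84180 to 104100 against 37148 to 45766. Of the 11, 2 passed an adjusted p of 0.05 in limma, as 0.0427% of all genes tested did. Negative differences were seen for 6612 of all 11703 genes tested. Of 9 endothelial markers tested 8 were negative, with summed signals of 4118 to 7011 against 6026 to 9939. All 6 macrophage markers tested were negative too, at 1324 to 10889 against 4999 to 7475 in sum. The macrophage receptor Csf1r, with the largest difference of these 6, read 2.81, 615 and 461 against 1300.2, 1583 and 1059.9. Besides Csf1r, only Adgre1 among the 6 had every mesonephros-derived array below every ovary-derived array, as 12.6% of all genes tested had. Lyz2, C1qb, C1qa and Cd68 overlapped. Lyz2 read 57.7, 3024 and 1119 against 1117, 1958 and 1023. C1qb read 875, 5589 and 942 against 1794, 2543 and 1566. Granulosa markers summed to 5834 to 6778 against 5220 to 6935. Of 4 tested, 3 had positive differences and 1 a negative, and the groups overlapped for each. Foxl2, the brightest of the list, was above the floor on every array. Fshr, which defines granulosa cells, read 6.02 to 29.0 against 8.40 to 20.7. Below the floor on average, Amh read 511, 234 and 33.4 against 20.7, 28.1 and 34.7. Nr5a2, also below it, read 16.2, 66.3 and 15.6 against 244, 185 and 95.3. Lymphoid markers summed to 369 to 1262 against 390 to 548. None of the 9 surface epithelial markers and 1 of 8 oocyte markers passed the floor. The part of these cell types in the Wnt differences was not tested.

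**Figure D4:**
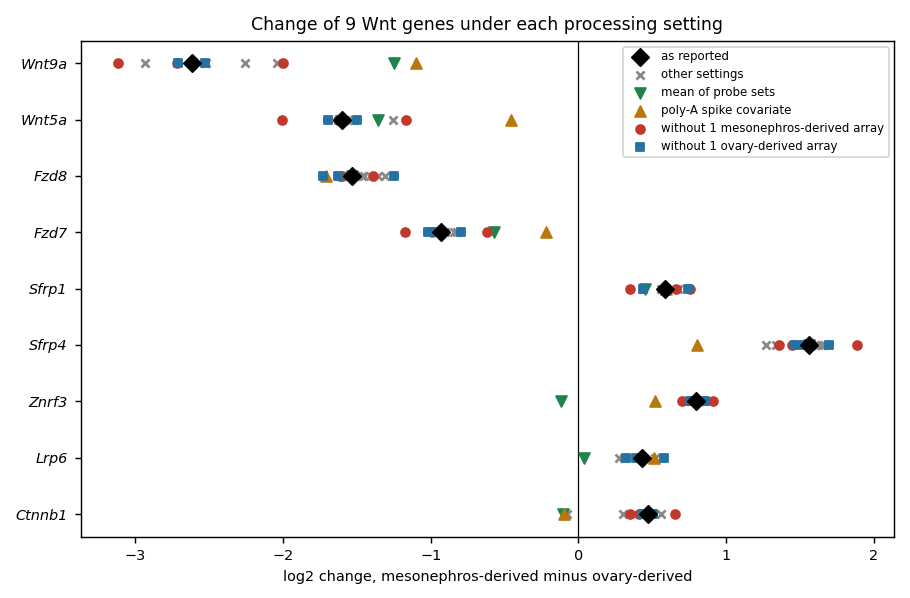
Log2 difference (mesonephros-derived minus ovary-derived) of 9 Wnt genes as reported (black diamonds) and under each alternative setting. Fzd8 stays between −1.73 and −1.25, Wnt5a and Wnt9a move to −0.45 and −1.10 with the poly-A spike covariate, and Znrf3 and Ctnnb1 lie below 0 as the mean of their probe sets.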

How the data were processed

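RNA of 6 samples was measured on 1-colour arrays, 3 per group. Per the labels' protocols, amplification used equal volumes of RNA whose concentrations varied. The authors deposited linear probe set intensity values, and the submitters' processing notes name MAS5; its version is not given in the sources used here. For each array the mean after trimming 2% at each end was 500, so no further normalization was applied. Tests omitted 64 control probe sets. Probe sets with 1 platform symbol were named (34945), those with several (932) or none here (9160) were not, and all 107 Wnt probe sets matched a RefSeq gene.

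Intensities were moved to log2(signal + 16), each gene took its brightest probe set, and genes below the 40th percentile were left out. The test was lmFit and eBayes with trend from limma 3.58.1 (R 4.3.3), with Benjamini-Hochberg adjustment over all 11703 genes, after a check on simulated data. Printed ± values are SE. Named genes were the 4 with the smallest p in each of 5 role classes and 15 always named (of which 2 were below the floor), 26 tested genes in all, and up to 2 from each pathway list; other tested members are given by their difference. The members and lists were chosen with earlier results of these data known. Replicates are numbered in the labels but not said to be separate animals, and the p-values then reflect only differences among these arrays, which may be technical. Their number limits the precision. The 20 alternatives changed 1 choice each. Of the replicate numbers, none was taken to pair samples.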

Additional observations from a re-analysis of the deposited data

Results flagged for a closer look

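Poly-A spike transcripts, which the comparison of genes does not use, read higher on every mesonephros-derived array than on any ovary-derived array. Relative to the mean of the ovary-derived arrays, mesonephros-derived replicates 1, 2 and 3 read 13.9, 13.2 and 2.25, against 0.618, 0.757 and 1.62 for the ovary-derived replicates. With this signal as a covariate Wnt5a stood at −0.45, Wnt9a at −1.10, Fzd8 at −1.71 and Sfrp4 at 0.80 log2 units. Because the spike signal moved with the groups, values from this fit cannot fully separate the 2.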

How the results depend on the processing

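Of 38 Wnt and pathway genes followed, 20 had 1 direction under every alternative run, Wnt5a, Wnt9a, Fzd8, Fzd7, Sfrp4, Sfrp1, Lrp6, Frzb and Dvl1 among them. The floor settings, the eBayes settings and the replicate block left each difference unchanged. Over every probe set, each gene was followed on its brightest probe set. Those settings could not turn a direction. Lrp6 counts among the 20 although its other probe set stood at −0.36, and Daam1 although it was at −2.4e-05 as the mean of probe sets. The count of Wnt genes past an adjusted p of 0.05 was 0 in every setting except array weights, where it was 2 (Wnt9a and Wnt5a). The count higher at an unadjusted p of 0.05, 4 as reported, was 8 with no floor, 7 over every probe set, 0 with the poly-A spike covariate, and 2 with quantile normalization, the mean of probe sets, eBayes without trend, array weights or the replicate block. The count lower, also 4 as reported, was 8 over every probe set and 1 with the spike covariate. Without 1 array these counts ran from 1 to 5 and from 3 to 7, and the median difference of the Wnt genes from −0.14 (without mesonephros-derived replicate 2) to 0.062. With the replicate number as a block 5 Wnt genes were lower, and 0 passed an adjusted p of 0.05; deviations of samples with the same number correlated at −0.00048, 0.071 and −0.01, so the numbers were not taken as pairs.

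With the spike covariate, genes on the other side of 0 were Axin1 at −0.30, Axin2 at 0.28, Ctnnb1 at −0.10, Dkk2 at 0.019, Lef1 at −0.42, Lgr6 at 0.047, Rspo2 at −0.035, Tcf7l2 at 0.058, Wnt11 at −0.35, Wnt4 at −0.82, Wnt6 at −0.066, Bcl9 at −0.11, Ccn4 at 0.66, Cd44 at 0.18 and Wls at 0.17. After quantile normalization they were Ctnnb1 at −0.074, Dkk3 at −0.12 and Lgr6 at 0.056, and after median centring Lgr6 at 0.072. As the mean of probe sets they were Axin1 at −0.0041, Ctnnb1 at −0.10, Wnt6 at −0.26 and Znrf3 at −0.12, with array weights Dkk3 at −0.027, Wnt11 at −0.40 and Wnt4 at −0.086, and with a pseudocount of 1 Wnt11 at −0.0014. Without 1 array, ranges that crossed 0 were −0.76 to 0.18 for Axin2, −0.028 to 0.12 for Dkk3, −0.75 to 1.03 for Fzd1, −0.65 to 0.75 for Lef1, −0.22 to 0.16 for Lgr6, −0.36 to 0.29 for Wnt11 and −0.36 to 0.46 for Wnt6. The cause of these shifts was not tested. Signal over background limits the 22 genes below the floor.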
